A study of Oryctolagus cuniculus with 17 samples.

Results

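Lungs of preterm rabbit pups that had spent 7 days in hyperoxia (HT7, 3 libraries) were compared with lungs of pups that had spent 5 days there (HT5, 2 libraries). These 5 libraries, 5 of the 17 in the series, were chosen by their labels alone. All pups were New Zealand White, were delivered on day 28 of gestation and were kept in incubators on milk replacer, at 95% oxygen in the HT groups and at 21% oxygen in the normoxia (NT) groups. Each library was made from polyadenylated RNA of a right lung homogenate. Normoxia pups of the same ages (NT5 and NT7, 3 libraries each) and hyperoxia pups of day 3 (HT3, 3 libraries) served as a reference, and NT3 (3 libraries) completed the series. The labels do not say whether libraries of a group came from separate litters, so the p-values measure the spread between these libraries, and HT5 has only 2 of them. A homogenate holds every cell of the lung, so fewer cells of a type and less RNA per cell cannot be told apart.

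Lungs at this gestational age are saccular, with thick septa and a capillary bed that is still forming. High oxygen damages endothelial cells and the flat alveolar type 1 cells, activates p53 and antioxidant programmes, and is followed by leukocyte influx and matrix remodelling. The comparison asks which of these responses still moved between day 5 and day 7 and which had levelled off.

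Of 13313 loci in the count table, 12628 had enough counts to be tested. Total counts, with each locus counted once, were 13123731 and 16026709 in HT5 and between 14283849 and 17107271 in HT7. The lung label was borne out by its markers, since the surfactant gene SFTPC stood at 13460 and 4424 CPM (counts scaled to library size, with TMM factors) in HT5 replicates 1 and 2 and at 4767, 13213 and 5701 CPM in HT7 replicates 1, 2 and 3. HT5 replicate 1 also held muscle RNA. It was the highest of the 5 libraries at 13 of 14 skeletal muscle loci, which summed to 551 CPM there against 74.5 CPM in HT5 replicate 2 and 77.8 to 88.1 CPM in HT7. MYH8, a fetal myosin heavy chain, stood at 108 CPM in HT5 replicate 1 and at 0.0594 to 0.266 CPM in the other 4 libraries. In the reference group HT3 these loci summed to 102, 693 and 162 CPM, so HT3 replicate 2 held more muscle RNA than HT5 replicate 1. The median of the muscle list log2FC (log2 fold change of HT7 against HT5, negative where HT7 was lower) was -4.10, and 0.12 without HT5 replicate 1.

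The groups were not cleanly separated. On the principal component that held 68.7% of the variance of the 500 most variable loci, HT5 scored 16.2 and 28.8 and HT7 scored 44.1, 27.1 and 41.7, so that HT7 replicate 2 lay below HT5 replicate 2. Over the 11084 more abundant loci, the log2 difference between the HT5 libraries had an SD of 0.628. HT5 replicate 1 differed less from HT7 replicate 2 (SD 0.510) than from its own replicate, and HT5 replicate 2 differed less from HT7 replicate 3 (SD 0.520). The pair HT5 replicate 1 and HT7 replicate 2 also shared high levels of several cell types. At 16 of 18 alveolar type 2 loci, 20 of 31 mitosis loci and 14 of 26 macrophage loci, these libraries were the top ones of the 5. MKI67, a proliferation marker, stood at 103 CPM in HT5 replicate 1 and 118 CPM in HT7 replicate 2, against 31.2, 36.2 and 56.7 CPM in the others. The part that these differences have in the results was not tested.

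**Figure D1:**
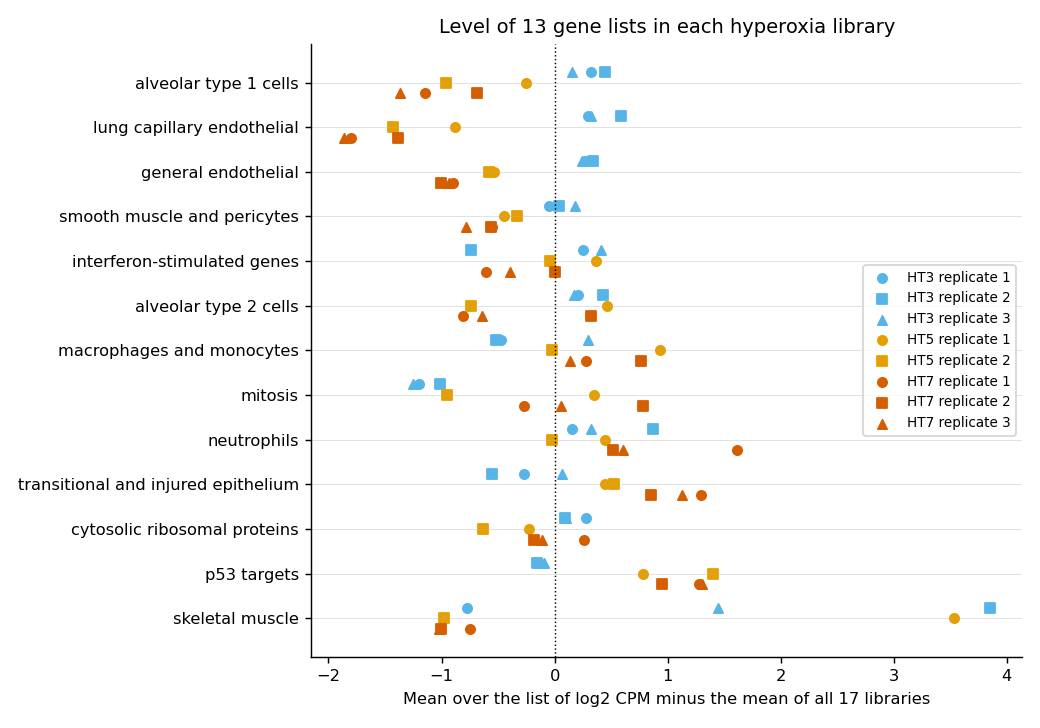
Level of 13 gene lists in the 8 hyperoxia libraries. The horizontal axis is the mean over a list of the log2 CPM minus the mean of all 17 libraries, colours mark the day and shapes the replicate. HT5 replicate 1 and HT7 replicate 2 lie near each other in alveolar type 2 cells and are the 2 rightmost in mitosis (0.35 and 0.78). HT3 replicate 2 (3.85) and HT5 replicate 1 (3.53) are far right in skeletal muscle. The 3 HT7 libraries lie left of both HT5 libraries in general endothelial genes.

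The changes from day 5 to day 7 were of modest size. The median absolute log2FC was 0.247 with a median SE of 0.213, and the log2FC of all loci had an SD of 0.64 around a median of -0.0024. A fitted change of more than 2-fold was seen at 937 loci (7.42%), 431 higher and 506 lower in HT7, and of more than 4-fold at 192 loci. More loci fell than rose. At an adjusted p-value under 0.05 (edgeR, Benjamini-Hochberg over all loci), 148 loci (1.17%) were downregulated and 37 (0.293%) upregulated, together 185 (1.46%). No locus (0.0%) reached in edgeR the thresholds used for differentially expressed genes in the study, an adjusted p-value under 0.01 with a log2FC above 2 or below -2, while 2347 loci (18.6%) had an unadjusted p-value under 0.05, 950 higher and 1397 lower. The 3 HT7 libraries lay above both HT5 libraries at 1503 loci (11.9%) and below both at 1785 (14.1%), and this included every one of the 185.

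These 185 calls depended on single libraries. Their number was 11 without HT5 replicate 1, 315 without HT5 replicate 2, 1 without HT7 replicate 1, 1213 without HT7 replicate 2 and 2 without HT7 replicate 3. Without 1 of the NT5 and NT7 libraries, which share the estimate of the spread, it was 96 to 146, with 96 without NT5 replicate 3 and 113 without NT7 replicate 2. With the 5 HT5 and HT7 libraries alone no locus was called by edgeR (1019 at an unadjusted p-value under 0.05). With DESeq2 on all 17 libraries 672 were called, 218 higher (1.73%) and 454 lower (3.6%), shares against which the DESeq2 counts of each list are given, and 26 passed the thresholds of the study. HT7 replicate 2 was the HT7 library nearest to HT5 at 28 of the 37 upregulated and 111 of the 148 downregulated loci (75.7% and 75%). Among all loci with HT7 wholly above or wholly below HT5, it was nearest at 51.0% and 55.7%. EDN3 was the only locus called whichever of the 5 libraries was left out.

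Side by side with other intervals, the change from day 5 to day 7 was smaller than that from day 3 to day 5, which shares the HT5 libraries with it. HT5 against HT3 had a median absolute log2FC of 0.367 (median SE 0.214), 1689 loci past 2-fold, 2793 loci (22.1%) at an adjusted p-value under 0.05 and 110 loci (0.871%) past the thresholds of the study, 45 higher and 65 lower. In normoxia, NT7 against NT5 had a median absolute log2FC of 0.132 (median SE 0.191) and 372 loci past 2-fold. None (0.0%) passed an adjusted p-value of 0.05 by edgeR, with 556 at an unadjusted p-value under 0.05 and a smallest adjusted p-value of 0.999. The difference between the change in hyperoxia and that in normoxia passed in edgeR at no locus (0.0%), with 1078 loci at an unadjusted p-value under 0.05. The smallest adjusted p-value of that difference was 0.092, at EDN3. DESeq2 called 29 loci for it, 3 higher and 26 lower.

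**Figure D2:**
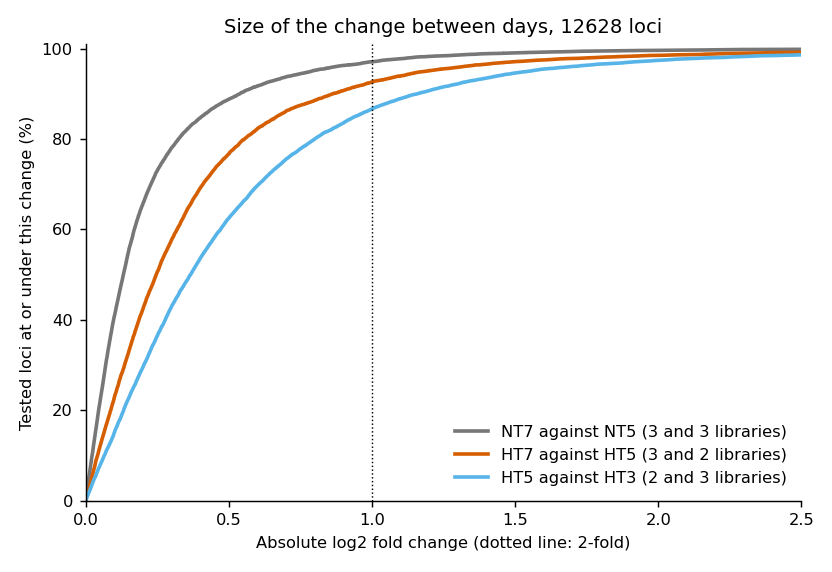
Share of the 12628 tested loci (vertical axis, percent) whose absolute log2FC between 2 days is at or under the value on the horizontal axis. The line of HT7 against HT5 runs between those of NT7 against NT5 and HT5 against HT3, with medians of 0.247, 0.132 and 0.367.

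EDN3, which codes for the vasoactive peptide endothelin-3, had the best supported change. The table places it on scaffold GL018755, from 632860 to 673939 on the plus strand of OryCun2.0. It stood at 82.7 and 53.8 CPM in HT5 and at 22.1, 25.5 and 19.5 CPM in HT7, so every HT7 library was below every HT5 library. The log2FC was -1.61 ± 0.17 (SE, adjusted p = 0.0015), and leaving out 1 of the 5 libraries moved it between -1.27 and -1.89 with an adjusted p-value of at most 0.019. Its mean was 173 CPM in HT3, 151 CPM in NT5 and 143 CPM in NT7, and the log2FC of NT7 against NT5 was -0.07 ± 0.15. The endothelin receptor EDNRB, which binds this peptide and marks a capillary cell type of the lung, stood at 190 and 111 CPM in HT5 and at 47.4, 99.8 and 65.7 CPM in HT7 (log2FC -1.08 ± 0.39, adjusted p = 0.16, and -0.65 without HT5 replicate 1).

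PCDH12, an endothelial protocadherin, stood at 83.3 and 42.1 CPM in HT5 and at 21.6, 20.8 and 19.6 CPM in HT7. The HT7 libraries lay within a narrow range below both HT5 libraries, with a log2FC of -1.60 ± 0.21 (adjusted p = 0.010). Without HT7 replicate 1 or HT7 replicate 3 the adjusted p-value was 0.070 or 0.055, and without HT5 replicate 1 the log2FC was -1.03. NT5 and NT7 held 181 and 145 CPM.

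The other 10 of the 12 largest falls among the called loci were spread over channels, receptors and developmental regulators. MYCN, a transcription factor of growing progenitor cells, stood at 6.83 and 1.54 CPM in HT5 and at 0.0631, 0.666 and 0.168 CPM in HT7 (log2FC -3.80 ± 0.87, adjusted p = 0.047). The HT5 libraries themselves differed more than 4-fold at MYCN, and the change was -2.38 without HT5 replicate 1. KCNA4, a voltage-gated potassium channel, stood at 2.40 and 1.72 CPM in HT5 and at 0.126, 0.200 and 0.391 CPM in HT7 (log2FC -3.04 ± 0.48, adjusted p = 0.025). KCNH6, another potassium channel, stood at 20.4 and 4.27 CPM in HT5 and at 0.441, 3.86 and 0.838 CPM in HT7, where HT7 replicate 2 lay close to HT5 replicate 2 (log2FC -2.86 ± 0.67, adjusted p = 0.049, and -1.35 without HT5 replicate 1). ERBB4, the neuregulin receptor that takes part in type 2 cell maturation, stood at 3.53 and 1.07 CPM in HT5 and at 0.441, 0.533 and 0.279 CPM in HT7 (log2FC -2.43 ± 0.45, adjusted p = 0.027, and -1.35 without HT5 replicate 1). The remaining 6 were UNC5D (netrin receptor), DCLK3 (kinase), TUBB1 (platelet tubulin), SLC46A2 (transporter), FREM1 (basement membrane protein) and DGKB (diacylglycerol kinase), with log2FC between -1.64 and -1.91. Without HT5 replicate 1, UNC5D was at -1.18 and FREM1 at -1.07. DCLK3 was the only one of these 10 still called without HT5 replicate 1 (log2FC -2.21, adjusted p = 0.020), and none of the 10 was called without HT7 replicate 1 or without HT7 replicate 3.

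The 12 largest rises among the called loci had log2FC between 1.88 (KRT5) and 5.03 (CRHBP). CRHBP, which binds corticotropin-releasing hormone, stood at 0.225 and 0.831 CPM in HT5 and at 44.5, 2.66 and 7.21 CPM in HT7 (log2FC 5.03 ± 1.11, adjusted p = 0.041, and 3.17 without HT7 replicate 1). CSF3, the granulocyte growth factor G-CSF, stood at 1.5 and 1.19 CPM in HT5 and at 58, 2 and 33.2 CPM in HT7 (log2FC 4.53 ± 1.04, adjusted p = 0.047). PTX3, a soluble pattern recognition protein, stood at 43.1 and 44.3 CPM in HT5 and at 1008, 66.6 and 422 CPM in HT7 (log2FC 3.51 ± 0.74, adjusted p = 0.035). In CSF3 and PTX3, HT7 replicates 1 and 3 were far above HT5 and HT7 replicate 2 was only a little above it. ADAMTS4, a protease that cuts cartilage-type proteoglycans, showed the same order, with 5.48 and 18.5 CPM in HT5 and 358, 25.0 and 104 CPM in HT7 (log2FC 3.75 ± 0.84, adjusted p = 0.044, and 2.42 without HT7 replicate 1).

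In a further group all 3 HT7 libraries stood well above HT5. CEACAM1, a cell adhesion molecule, stood at 14.6 and 14.4 CPM in HT5 and at 126, 76.1 and 140 CPM in HT7 (log2FC 2.98 ± 0.67, adjusted p = 0.044). FKBP5, a co-chaperone of the glucocorticoid receptor, stood at 25.1 and 30.7 CPM in HT5 and at 301, 103 and 203 CPM in HT7 (log2FC 2.86 ± 0.61, adjusted p = 0.036). ZBTB16, a transcription factor that glucocorticoids induce, stood at 23.9 and 30.4 CPM in HT5 and at 217, 105 and 224 CPM in HT7 (log2FC 2.74 ± 0.56, adjusted p = 0.030). KRT5, a keratin of airway basal cells, stood at 2.10 and 1.78 CPM in HT5 and at 9.33, 6.33 and 5.81 CPM in HT7 (log2FC 1.88 ± 0.43, adjusted p = 0.047). The remaining 4 were MEDAG (an adipogenesis gene), STEAP1 and STEAP2 (metalloreductases) and SLC51A (a steroid transporter subunit), with log2FC between 2.35 and 4.61. Without HT7 replicate 2 all 12 rises were called, and without HT5 replicate 1, HT7 replicate 1 or HT7 replicate 3 none was.

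**Figure D3:**
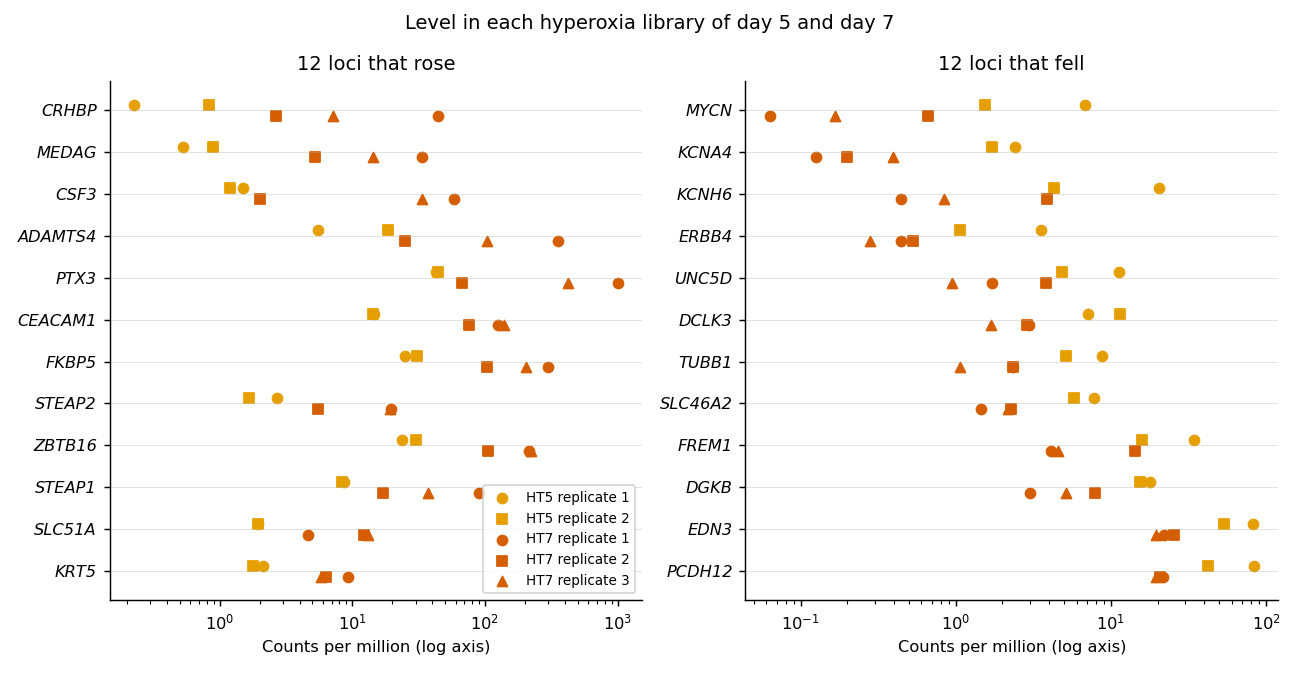
CPM (horizontal log axes) of the 12 upregulated and 12 downregulated loci with the largest log2FC, in the 2 HT5 and 3 HT7 libraries. HT7 replicate 2 is often the HT7 point nearest to HT5, as in CSF3, PTX3 and KCNH6, while in EDN3 and PCDH12 the 3 HT7 points lie together.

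As a whole, the 37 upregulated loci had a median log2FC of 1.28 and 23 of them were past 2-fold, and the 148 downregulated loci had a median of -0.93 with 59 past 2-fold. Across the same days in normoxia, their medians were 0.23 and -0.13, against -0.0072 for all loci. HT3 against NT3 gave medians of 0.18 and -0.19 at these loci, against 0.0031 for all loci. Its libraries enter both comparisons only through the shared estimate of the spread, so it is not fully independent of these calls. By that comparison 1 of the 37 was upregulated and 7 of the 148 were downregulated on day 3, where 126 of all loci (0.998%) passed, 65 higher and 61 lower.

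Most general endothelial loci had small negative values. Of 21 loci 16 were lower, 13 were level (61.9%; the whole 95% interval within 2-fold, as for 65.8% of all loci), 1 was downregulated (4.76%, against 1.17% of all loci) and 9 had all HT7 libraries below HT5 (42.9%, against 14.1%). A share of this size was not particular to endothelial loci, since it was 39.3% for interferon-stimulated genes and 40% for lymphocyte loci. DESeq2 called 7 of the 21 endothelial loci lower (33.3%, against 3.6% of all loci). The list had a median log2FC of -0.41 that stayed between -0.35 and -0.48 when any of the 5 libraries was left out. Their median over the same days in normoxia was 0.088. ROBO4, an endothelial guidance receptor, stood at 361 and 328 CPM in HT5 and at 200, 181 and 157 CPM in HT7 (log2FC -0.94 ± 0.15, adjusted p = 0.025). The values of ROBO4 did not overlap between the days, and its adjusted p-value was 0.091, 0.070 and 0.079 without HT5 replicate 1, HT7 replicate 1 and HT7 replicate 3. KDR, the main VEGF receptor, stood at 226 and 146 CPM in HT5 and at 64.6, 119 and 74.4 CPM in HT7 (log2FC -1.12 ± 0.28, adjusted p = 0.061). TEK, the angiopoietin receptor, had a log2FC of -0.93 ± 0.23 (adjusted p = 0.056, and -0.54 without HT5 replicate 1) in hyperoxia and 0.28 ± 0.20 in normoxia. VWF, made by cells of larger vessels, and PECAM1, found on all endothelium, did not share these values. Their log2FC were 0.14 ± 0.28 and 0.32 ± 0.25, with intervals within 2-fold. The log2FC of PECAM1 ranged from -0.01 to 0.58 when 1 of the 5 libraries was left out.

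Lung capillary genes had a median log2FC of -0.42 over 27 loci, 21 of them lower, which ranged from -0.18 without HT5 replicate 1 to -0.81 without HT7 replicate 2. PRX and FOXF1 were downregulated (7.41%, against 1.17% of all loci), DESeq2 called 6 loci lower (22.2%, against 3.6%), and 8 loci had all HT7 libraries below HT5 (29.6%, against 14.1%). PRX, a scaffold protein of capillary endothelium, stood at 118 and 65.1 CPM in HT5 and at 32.7, 54.8 and 24.3 CPM in HT7 (log2FC -1.30 ± 0.30, adjusted p = 0.047, and -0.81 without HT5 replicate 1). FOXF1, a transcription factor needed for the pulmonary capillary bed, stood at 64.1 and 67.0 CPM in HT5 and at 42.6, 37.2 and 32.2 CPM in HT7 (log2FC -0.81 ± 0.16, adjusted p = 0.027). Both HT5 libraries were nearly equal at FOXF1 and above every HT7 library. APLN, the ligand apelin, moved from 138 and 217 CPM in HT5 to 48.0, 40.9 and 30.8 CPM in HT7 (log2FC -2.15 ± 0.51, adjusted p = 0.051) and had a mean of 37.7 CPM in HT3. Among 23 angiogenic factors, whose median was -0.36, or -0.14 without HT5 replicate 1 and -0.23 without HT5 replicate 2, and of which 4 were called lower by DESeq2 (17.4%, against 3.6% of all loci) and none by edgeR (10 at an unadjusted p-value under 0.05), the Notch ligands DLL4 and JAG1 had log2FC of -1.14 ± 0.34 and -1.01 ± 0.27 (JAG1 -0.30 without HT5 replicate 2) and placental growth factor PGF 0.86 ± 0.41 (0.25 without HT7 replicate 1).

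Members of the smooth muscle and pericyte list moved in different ways. Of 20 loci 8 were higher and 12 lower, 4 were downregulated (20.0%, against 1.17% of all loci), 9 were level (45%, against 65.8%), and the median log2FC of -0.22 was -0.08 without HT5 replicate 1. DESeq2 called 2 loci higher (10%, against 1.73% of all loci) and 5 lower (25%, against 3.6%). NOTCH3 and PDGFRB, receptors of pericytes, stood at 360 and 678 CPM and at 362 and 620 CPM in HT5, and at 228 to 301 CPM and 222 to 252 CPM in HT7. Their log2FC were -0.94 ± 0.22 (adjusted p = 0.049) and -1.04 ± 0.22 (adjusted p = 0.036), and without HT5 replicate 2 they were -0.41 for NOTCH3 and -0.60 for PDGFRB. COX4I2, a respiratory subunit of lung pericytes, had a log2FC of -0.99 ± 0.16 (adjusted p = 0.025) and SYNPO2, an actin-bundling protein, of -0.98 ± 0.23 (adjusted p = 0.047). The contractile genes ACTA2 (0.37 ± 0.21), MYH11 (0.19 ± 0.22) and DES (0.20 ± 0.26) had intervals within 2-fold. TAGLN, the actin-binding protein transgelin, stood at 3.08 and 6.29 CPM in HT5 and at 12.5, 12.5 and 7.93 CPM in HT7 (log2FC 1.21 ± 0.36, adjusted p = 0.097). It had the highest log2FC of the list, which was 0.80 without HT5 replicate 1 and 1.83 without HT5 replicate 2 (adjusted p = 0.40 and 0.049).

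Genes of alveolar type 1 cells were mostly lower. Of 17 alveolar type 1 loci 4 were downregulated (23.5%, against 1.17% of all loci) and 14 were lower. DESeq2 called 1 higher (5.88%, against 1.73%) and 6 lower (35.3%, against 3.6%). The list had a median log2FC of -0.60 that was -0.16 without HT5 replicate 1, where 7 of the 17 were higher, and -1.03 without HT5 replicate 2. EMP2, a membrane protein of these cells, stood at 589 and 276 CPM in HT5 and at 153, 198 and 134 CPM in HT7 (log2FC -1.42 ± 0.30, adjusted p = 0.036). The caveolar proteins CAV1 and CAV2 had log2FC of -1.12 ± 0.24 (adjusted p = 0.036) and -0.91 ± 0.17 (adjusted p = 0.027), and NDNF, a secreted factor, of -1.0 ± 0.21 (adjusted p = 0.036). Without HT5 replicate 1 none of these 4 was called, with log2FC of -0.77 for EMP2, -0.59 for CAV1, -0.58 for CAV2 and -0.58 for NDNF. CAV1 is also abundant in endothelium. Other type 1 markers had different values. PDPN had a log2FC of -0.02 ± 0.16. HOPX was at 288 and 317 CPM in HT5 and 723, 398 and 528 CPM in HT7 (0.86 ± 0.24, adjusted p = 0.082). SPOCK2 was higher, with log2FC from 1.12 to 2.53 in the fits that left out 1 library, and was not called by edgeR with all libraries.

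Markers of transitional and injured epithelium were higher at 17 of 21 loci, with a median log2FC of 0.64 that stayed between 0.47 and 0.89 without any of the 5 libraries and was -0.0084 in normoxia. KRT5 was upregulated (4.76%, against 0.293% of all loci) and DESeq2 called 6 loci higher (28.6%, against 1.73%). KRT7, a simple-epithelial keratin, stood at 305 and 375 CPM in HT5 and at 988, 455 and 567 CPM in HT7 (log2FC 0.98 ± 0.25, adjusted p = 0.064, and 0.59 without HT7 replicate 1). LGALS3, the lectin galectin-3, stood at 288 and 260 CPM in HT5 and at 468, 476 and 486 CPM in HT7 (log2FC 0.80 ± 0.20, adjusted p = 0.060). CLDN4, a tight junction protein induced in injured alveoli, had a log2FC of 1.47 ± 0.39 (adjusted p = 0.071, and 0.97 without HT5 replicate 1). For alveolar type 2 cells no direction could be given, since the median of -0.33 over 18 loci was 0.40 without HT5 replicate 1 and -0.78 without HT7 replicate 2.

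Glucocorticoid and circadian genes moved in both directions. Of 23 loci 2 were upregulated, FKBP5 and ZBTB16, and 2 were downregulated, together 17.4%, against 1.46% of all loci. DESeq2 called 3 higher and 3 lower (13% each, against 1.73% and 3.6%). The median log2FC of 0.34 was 0.15 without HT7 replicate 1, 0.19 without HT5 replicate 1 and 0.70 without HT5 replicate 2. NR3C1, the glucocorticoid receptor itself, stood at 194 and 185 CPM in HT5 and at 91.5, 147 and 126 CPM in HT7 (log2FC -0.64 ± 0.15, adjusted p = 0.049). TEF, a transcription factor of the circadian output, stood at 75.2 and 66.4 CPM in HT5 and at 37.6, 45.8 and 40.3 CPM in HT7 (log2FC -0.78 ± 0.17, adjusted p = 0.036). The HT7 libraries lay below both HT5 libraries at NR3C1 and TEF.

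Of 34 cytokine and chemokine loci 20 were higher and 14 lower. By edgeR 2 were upregulated (PTX3 and CSF3, 5.88%, against 0.293% of all loci) and none downregulated, and by DESeq2 3 were higher (8.82%, against 1.73%) and 0 lower. At an unadjusted p-value under 0.05 there were 8 higher and 1 lower, and all HT7 libraries lay above HT5 at 9 loci (26.5%, against 11.9% of all loci) and below it at 2 (5.88%, against 14.1%). The median log2FC of 0.30 ranged from 0.07 without HT7 replicate 1 to 0.70 without HT5 replicate 1, where 26 of the 34 were higher. The median of the same loci in normoxia was 0.47. The prostaglandin synthase PTGS2 stood at 59.8 and 214 CPM in HT5 and at 1013, 112 and 766 CPM in HT7 (log2FC 2.20 ± 0.73, adjusted p = 0.13, and 3.40 without HT5 replicate 2). HT7 replicate 2 lay between the HT5 libraries there. CCL2, the monocyte chemokine, stood at 128 and 419 CPM in HT5 and at 148, 178 and 270 CPM in HT7, with a log2FC of -0.46 ± 1.06 whose 95% interval ran from -2.73 to 1.81. CCL7, a related chemokine, had 96.1 and 142 CPM in HT5 and 115 to 128 CPM in HT7 (0.04 ± 0.53). For CCL2 and CCL7 the interval was too wide to call the level unchanged.

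Neutrophil markers were higher at 15 of 17 loci with a median log2FC of 0.78, or 0.38 without HT5 replicate 2 and without HT7 replicate 1 and 1.25 without HT5 replicate 1, but none was called by edgeR (5 at an unadjusted p-value under 0.05) and the median was 0.93 in normoxia. S100A9, a protein of myeloid cells, stood at 382 and 287 CPM in HT5 and at 1647, 452 and 667 CPM in HT7. Its log2FC was 1.46 ± 0.62 (adjusted p = 0.22), and 0.74 without HT7 replicate 1. Interferon-stimulated genes were lower at 26 of 28 loci, with a median log2FC of -0.53, or -0.23 without HT5 replicate 1, and none called by edgeR (8 at an unadjusted p-value under 0.05). IFIT3, an antiviral effector, had 113 and 87.5 CPM in HT5 and 34, 72.6 and 55.3 CPM in HT7 (log2FC -0.89 ± 0.37, adjusted p = 0.22). Macrophage loci had a median of -0.03 and changed sign with the library left out, with 1 called lower by DESeq2 and none by edgeR (3 at an unadjusted p-value under 0.05).

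Among matrix genes, 16 collagen and elastic fibre loci were higher and 18 lower, from -1.17 to 1.30, with a median log2FC of -0.02 that was -0.18 and 0.18 at the extremes when 1 library was left out. Of these 34 loci 24 (70.6%) were level, a share near that of all loci, and DESeq2 called 1 higher and 2 lower (2.94% and 5.88%, against 1.73% and 3.6%) and edgeR none (6 at an unadjusted p-value under 0.05). COL3A1 had a log2FC of 0.13 ± 0.21 and elastin (ELN) of -0.08 ± 0.18. Matrix proteases and their inhibitors spread widely, from -0.94 to 3.96, around a median of 0.09. That median changed sign with the library left out, from 0.86 without HT5 replicate 1 to -0.13 without HT5 replicate 2. ADAMTS4 was called higher by edgeR (4.35%, against 0.293% of all loci) and 4 loci were called higher by DESeq2 (17.4%, against 1.73%). TIMP1, the main inhibitor of matrix metalloproteinases, stood at 213 and 195 CPM in HT5 and at 1568, 291 and 769 CPM in HT7 (log2FC 2.10 ± 0.53, adjusted p = 0.063, and 1.38 without HT7 replicate 1). MMP10, a stromelysin, stood at 6.83 and 23.6 CPM in HT5 and at 301, 30 and 387 CPM in HT7 (log2FC 3.96 ± 1.02, adjusted p = 0.095).

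The 22 fibroblast loci, 8 higher and 14 lower, had a median of -0.27 (-0.63 without HT5 replicate 2 and 0.18 without HT5 replicate 1). Their log2FC ran from -1.12 to 2.26. By edgeR 1 was downregulated (4.55%, against 1.17% of all loci) and by DESeq2 4 were higher and 4 lower (18.2% each, against 1.73% and 3.6%). Among the higher loci, SCARA5 and LUM had log2FC of 1.81 to 2.86 and 0.95 to 1.53 when 1 library was left out. The edgeR call was WNT5A, a signalling ligand of myofibroblasts, with 62.3 and 43.2 CPM in HT5 and 27.6, 34.4 and 33.4 CPM in HT7 (log2FC -0.73 ± 0.15, adjusted p = 0.035, and -0.44 without HT5 replicate 1). The TGF-beta and BMP pathway had a median of -0.06 over 28 loci (-0.15 to 0.01 when 1 library was left out) and none called by edgeR (9 at an unadjusted p-value under 0.05), and 1 higher and 5 lower by DESeq2 (3.57% and 17.9%, against 1.73% and 3.6% of all loci). Lymphocyte loci had a median of -0.60 over 20 loci, or -0.16 without HT5 replicate 1 and -0.93 without HT5 replicate 2, and none called by edgeR (2 at an unadjusted p-value under 0.05).

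Proliferation genes could not be given a direction. Mitosis loci were higher at 30 of 31 with a median log2FC of 0.43, which was -0.07 without HT5 replicate 2 and 1.19 without HT5 replicate 1, and S phase loci had a median of 0.07, or -0.30 and 0.47 without these libraries. In normoxia their medians were -0.70 and -0.66. Airway, mesothelial, erythroid, heart muscle and acute phase loci had medians of 0.23, 0.76, -0.36, -0.42 and -0.09, and none was called by edgeR (2, 3, 0, 2 and 0 at an unadjusted p-value under 0.05). DESeq2 called 1 airway locus higher and 1 mesothelial locus lower. The airway median was 0.08 without HT7 replicate 2 and the mesothelial one 0.12 without HT7 replicate 1. Without HT5 replicate 1 the heart muscle median was -0.07 and the acute phase median 0.43.

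**Figure D4:**
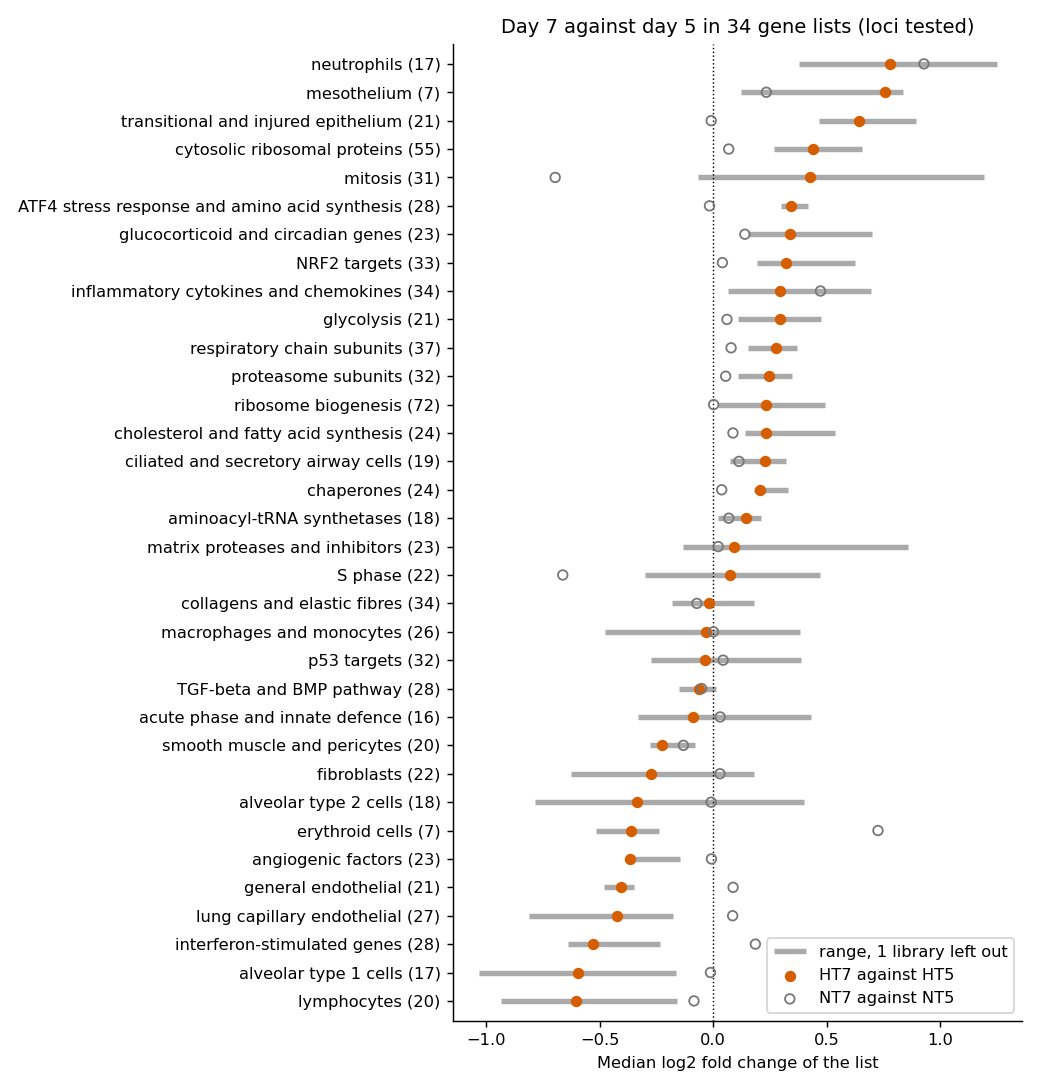
Median log2FC of HT7 against HT5 (filled points) and of NT7 against NT5 (open points) in 34 gene lists, with the number of tested loci in brackets. Grey bars give the range of the HT7 against HT5 median when 1 of the 5 libraries is left out, and bars that cross the dotted line, as for alveolar type 2 cells (-0.78 to 0.40), cover both signs.

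A plateau was defined by the interval, not by a missing call: a locus counted as level where the whole 95% interval of its log2FC lay within 2-fold. By this rule 8305 loci (65.8%) were level between day 5 and day 7, 44 of them with a small called change of 0.41 to 0.70 in absolute log2FC. In normoxia 9650 loci (76.4%) were level. A further 4182 loci were neither level nor called, with a median SE of 0.485, so for these the data left the size open. The share of level loci rose with abundance, from 0.232% of loci under 0 log2 CPM over 53.8% between 2 and 4 to 86.9% over 6. With a bound of 1.5-fold 4445 loci were level and with 3-fold 10444.

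Loci that hyperoxia had already changed on day 3 were often level from day 5 to day 7, where 65.8% of all loci were. The 65 loci upregulated in HT3 against NT3 had a median log2FC of 0.093 between HT5 and HT7, and 49 of them (75.4%) were level and 1 was upregulated (1.54%, against 0.293% of all loci), BLVRB, a biliverdin reductase (log2FC 0.60 ± 0.13, adjusted p = 0.039). The 61 downregulated in HT3 had a median of -0.26, with 50 (82.0%) level, 44 lower and 7 downregulated (11.5%, against 1.17% of all loci). Their median SE was 0.188 and 0.172, under the 0.213 of all loci, and the HT3 and NT3 libraries enter the HT7 against HT5 contrast only through the shared estimate of the spread. Of the 22 loci of the study's day 3 list, which was chosen on these HT3 and NT3 libraries, 1 was upregulated (FKBP5, against 0.293% of all loci), 6 were level and the median was -0.085, with a median SE of 0.537.

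A different picture held for the loci that differed most between hyperoxia and normoxia over days 5 and 7, a contrast that uses the same HT5 and HT7 libraries. Of these 437 loci (3.46%), the 175 higher in hyperoxia had a median log2FC of 0.56 from day 5 to day 7, with 8 upregulated (4.57%, against 0.293% of all loci) and 22 (12.6%, against 65.8%) level. The 262 lower in hyperoxia had a median of -0.77, with 15 downregulated (5.73%, against 1.17%) and 13 (4.96%) level. Their median SE of 0.575 and 0.545 was above the 0.213 of all loci, and 379 of the 437 were neither called nor level.

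Targets of p53 had a median log2FC of 1.23 from day 3 to day 5, with the same HT5 libraries, and of -0.04 from day 5 to day 7. Of these 32 loci 22 (68.8%) were level, close to the 65.8% of all loci, and 1 was upregulated by edgeR (3.13%, against 0.293%). DESeq2 called 2 higher and 2 lower (6.25% each, against 1.73% and 3.6%). The HT5 libraries differed at many of them, and the median was -0.27 without HT5 replicate 1 and 0.39 without HT5 replicate 2. CDKN1A, the cell cycle inhibitor p21, stood at 739 and 1689 CPM in HT5 and at 1106, 1165 and 2038 CPM in HT7, against means of 133 CPM in HT3 and 31.8 CPM in NT7. Its log2FC was 0.24 ± 0.35 with a 95% interval from -0.50 to 0.99. CDKN1A was no longer level in 4 of the 5 fits that left out 1 library, with log2FC from -0.23 without HT5 replicate 1 to 0.96 without HT5 replicate 2. EDA2R, a death receptor and p53 target, stood at 127 and 243 CPM in HT5 and at 142, 123 and 214 CPM in HT7 (-0.21 ± 0.26, or -0.60 without HT5 replicate 1 and -0.48 without HT7 replicate 3, where it was not level), against means of 22.5 CPM in HT3 and 5.62 CPM in NT7. BAX (0.14 ± 0.17) and PHLDA3 (0.15 ± 0.33), which promote apoptosis and restrain AKT, were level too, but PHLDA3 was not level without HT5 replicate 1 (-0.28), HT5 replicate 2 (0.77) or HT7 replicate 2 (0.32). TP53I3, an oxidoreductase, was the locus upregulated by edgeR, with 6.68 and 8.13 CPM in HT5 and 23.7, 15.3 and 20.4 CPM in HT7 (1.41 ± 0.28, adjusted p = 0.027).

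Other level loci with a large distance to normoxia were found on both sides. ANGPT2, the angiopoietin that destabilises vessels, stood at 555 and 932 CPM in HT5 and at 553, 439 and 593 CPM in HT7 (log2FC -0.49 ± 0.22), against a mean of 46.0 CPM in NT7. ANGPT2 was not level without HT5 replicate 1 (-0.82), HT7 replicate 1 (-0.53) or HT7 replicate 3 (-0.58), and its log2FC was -0.07 without HT5 replicate 2. SLCO1A2, an organic anion transporter, stood at 48.7 and 43.2 CPM in HT5 and at 55.6, 48.1 and 43.2 CPM in HT7 (0.09 ± 0.24), against 5.35 CPM in NT7. On the low side CD93, an endothelial receptor, stood at 130 and 80.8 CPM in HT5 and at 64.5, 110 and 72.8 CPM in HT7 (-0.35 ± 0.26), against 745 CPM in NT7. CD93 was not level without HT5 replicate 2 (-0.65) or HT7 replicate 2 (-0.62). PRELP, a matrix proteoglycan, stood at 38.9 and 38.8 CPM in HT5 and at 42.9, 31.9 and 32.9 CPM in HT7 (-0.11 ± 0.30), against 243 CPM in NT7. SLC6A4, the serotonin transporter of lung capillaries, was level as well (-0.10 ± 0.32), with means of 220 CPM in HT3 and 233 CPM in NT7 and 13.8 to 36.0 CPM in the 5 libraries. SLC6A4 was level in 1 of the 5 fits that left out 1 library, with log2FC from -0.46 without HT5 replicate 2 to 0.36 without HT5 replicate 1. SLCO1A2 and PRELP were level in all 5.

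**Figure D5:**
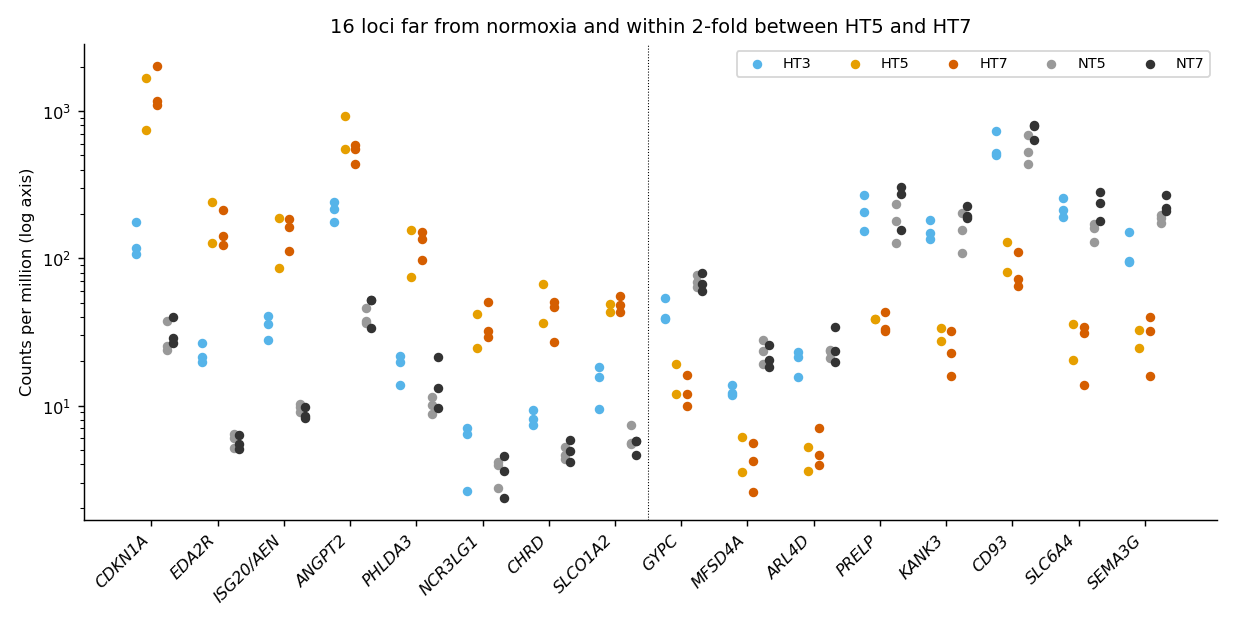
CPM (vertical log axis) of 16 level loci with the largest difference between hyperoxia and normoxia, 8 higher (left of the dotted line) and 8 lower (right), in HT3, HT5, HT7, NT5 and NT7. HT5 and HT7 points overlap at each locus and lie apart from both normoxia groups, as for CDKN1A and CD93.

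Most genes of protein synthesis and turnover were level, with medians slightly above 0. Of 72 ribosome biogenesis loci 65 (90.3%) were level and 67 were higher, with a median log2FC of 0.23 that was 0.02 without HT5 replicate 1 and 0.49 without HT5 replicate 2. Of 18 aminoacyl-tRNA synthetases 16 (88.9%) were level (median 0.14, or 0.02 without HT5 replicate 1) and of 32 proteasome loci 30 (93.8%) were (median 0.25, or 0.11 without HT7 replicate 1). These lists hold abundant genes, with median averages of 5.43, 7.13 and 6.75 log2 CPM, where most loci were level. Chaperones, glycolysis, respiratory chain and cholesterol synthesis had medians of 0.21, 0.29, 0.28 and 0.23, which ranged over 0.18 to 0.33, 0.11 to 0.47, 0.16 to 0.37 and 0.14 to 0.54 when 1 library was left out, with NDUFB8, a subunit of respiratory complex I, called higher by edgeR (1 of 37 loci, against 0.293% of all loci; log2FC 0.61 ± 0.14). DESeq2 called 2 chaperones (8.33%), 1 glycolysis locus (4.76%), 2 respiratory chain loci (5.41%) and 3 proteasome loci (9.38%) higher, against 1.73% of all loci, and 1 chaperone lower. The median log2FC of 33 NRF2 targets was 0.32, or 0.20 without HT7 replicate 3 and 0.63 without HT5 replicate 2, and that of 28 ATF4 targets was 0.34 (0.30 to 0.42), with none called in either by edgeR (7 and 6 at an unadjusted p-value under 0.05) and 2 called higher in each by DESeq2 (6.06% and 7.14%, against 1.73%). HMOX1, heme oxygenase, stood at 112 and 156 CPM in HT5 and at 379, 131 and 459 CPM in HT7 (1.27 ± 0.44, adjusted p = 0.15), and NQO1, a quinone reductase, had a log2FC of -0.30 ± 0.48, or -0.99 without HT5 replicate 1 and 1.07 without HT5 replicate 2.

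Cytosolic ribosomal proteins were higher at 53 of 55 loci, with a median log2FC of 0.44 that stayed between 0.27 and 0.66 without any of the 5 libraries and was 0.069 in normoxia. In this list 2 loci were upregulated by edgeR (3.64%, against 0.293% of all loci), RPL3 and the shared locus of RPL13, SPG7 and SNORD68. DESeq2 called 8 of the 55 higher, against 1.73% of all loci, and 29 were level (52.7%, against 65.8%). RPL3, a protein of the large subunit, stood at 1399 and 1165 CPM in HT5 and at 2030, 1779 and 1752 CPM in HT7 (log2FC 0.53 ± 0.12, adjusted p = 0.039). From day 3 to day 5, with the same HT5 libraries, the median of this list was -0.59. Against normoxia pups of the same age it was -0.44 in HT5 and -0.08 in HT7, so HT5 lay below normoxia and HT7 near it. HT7 replicate 1 was the highest of the 5 libraries at 45 of the 55 loci. Several symbols of the list cover more than 1 locus, so copies of these genes cannot be told apart with certainty. The 55 loci matched 34 listed genes and had a median average of 2.56 log2 CPM, so they are not 55 separate genes.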

How the data were processed

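Gene counts of 17 lung RNA-seq libraries were used as deposited. Per the labels and the study's methods, the authors mapped paired-end reads of stranded libraries to a rabbit assembly, and the values deposited are unnormalised counts per gene. The submitters' processing notes name FastQC, STAR 2.7.10a and the build OryCun2.0. The counting program was not given in the sources used here. The table held 13827 entries at 13313 loci. Entries of several genes that shared a locus carried the same counts and were used once.

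Loci passing edgeR's filter on low counts (12628) were fitted in edgeR 4.0.16 (R 4.3.3) with TMM factors and quasi-likelihood tests over all 17 libraries in their 6 groups, with p-values adjusted by Benjamini-Hochberg over all loci. A change was called at an adjusted p-value under 0.05. Errors after ± are SE from the fit. A locus was level where its 95% interval lay within 2-fold. DESeq2 1.42.0, other scalings and filters, a replicate block and leaving out each library were alternatives. Counts were also simulated with changes in HT7 against HT5 (12471 loci). The fit called 62.7%, 97.0% and 98.5% of 67, 67 and 66 loci changed by 1, 2 and 3 on the log2 scale. It also called 6 unchanged loci. The changed loci averaged at least 2 CPM, and all groups otherwise had the same mean. Muscle RNA and the levels that HT5 replicate 1 shared with HT7 replicate 2 were not simulated, so these shares need not hold for the real libraries.

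Named genes were the 12 largest rises and 12 largest falls called with groups apart and an average of 1 log2 CPM or more, the 2 largest changes and 2 most abundant members of each list, the study's own gene sets, and the 8 level loci on either side with the largest hyperoxia difference. All other genes, including called and uncalled list members outside these ranks, were chosen after their values were seen. The groups, gene lists and tests were chosen with earlier results of these data known. Replicate numbers did not pair libraries (correlation of deviations -0.254 and -0.403 for equal numbers). 1 gene is not reported here.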

Additional observations from a re-analysis of the deposited data

How the results depend on the processing

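HT7 against HT5 rested on 2 HT5 libraries. Loci called at an adjusted p-value under 0.05 numbered 185, against 672 with DESeq2, 118 with upper quartile factors, 0 with the 5 libraries alone, 0 with the 8 hyperoxia libraries alone (1019 and 1422 at an unadjusted p-value under 0.05) and 1 to 1213 without 1 of the 5 libraries. The extremes were reached without HT7 replicate 1 and without HT7 replicate 2. Fewer libraries enter the smaller fits, and beyond that the cause was not tested. Loci past the study's thresholds numbered 0, against 26 with DESeq2 and 0 to 47 without 1 library. The difference from normoxia was called at 0 loci, against 29 with DESeq2 and 0 to 105 without 1 library, with 105 without HT7 replicate 2. Level loci numbered 8305, against 4445 with a 1.5-fold bound. All 185 kept their sign in each of these fits. At each of them every HT7 library lay on the same side of both HT5 libraries, so this outcome was largely fixed in advance. With a replicate block 165 loci were called, 128 of them among the 185. The replicate numbers do not pair these libraries. Of the 56 level loci within the naming rule, 18 were no longer level without HT5 replicate 1 and 21 without HT5 replicate 2. No list median moved by more than 0.02 under another scaling. The level share was 0.232% of loci under 0 log2 CPM and 86.9% of those over 6, and whether more depth would change this was not tested.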

Other observations

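The glucocorticoid-responsive genes FKBP5 and ZBTB16, compared here after their values were seen, had their lowest mean on day 5 in both oxygen groups. FKBP5 had means of 184 CPM in HT3, 27.9 CPM in HT5 and 202 CPM in HT7, and of 41.6, 34.7 and 84 CPM in NT3, NT5 and NT7. ZBTB16 had means of 262, 27.1 and 182 CPM in hyperoxia and of 104, 58.6 and 156 CPM in normoxia. The log2FC of NT7 against NT5 was 1.27 ± 0.49 for FKBP5 and 1.41 ± 0.45 for ZBTB16, with an adjusted p-value of 0.999 for both in edgeR. The difference between the oxygen groups in this change was not called for either gene.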
